A study of Mus musculus with 12 samples.

Results

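The markers described here belong to the macrophages of the liver and to myeloid cells that can enter it: 37 genes, of 18193 with a probe set of their own, chosen by name. They comprise 9 markers of the resident liver macrophage, the Kupffer cell, 19 markers carried by macrophages or myeloid cells in general, 8 markers of recruited or lesion-associated myeloid cells, and the macrophage growth factor Csf1. All 37 were measured, 25 by 1 probe set and 12 by several, and each was read from its brightest probe set on a log2(intensity + 16) scale after quantile normalization, on which an intensity of 0 would sit at 4. The arrays compared 6 hepatocellular carcinomas (HCC) that arose spontaneously with 6 normal livers, all from untreated B6C3F1 mice 2 years of age, a hybrid strain of long-term cancer bioassays. The groups share strain, age and the lack of any treatment and differ in the tumour. Each sample was a piece of frozen tissue with all its cells, on 1 single-colour Affymetrix array, and the labels give neither sex nor which mouse each piece came from, so the p-values measure the spread between these samples. In such bulk tissue fewer cells of a type and less RNA per cell cannot be told apart.

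Kupffer cells line the liver sinusoids, where they capture particles, bacteria and senescent red cells from portal blood. Most descend from embryonic precursors and renew in place under colony-stimulating factor 1 (CSF1), which acts through the receptor Csf1r. They carry a set of surface proteins that other macrophages mostly lack, among them the lectin Clec4f and the phosphatidylserine receptor Timd4. When the liver is injured or bears a tumour, blood monocytes with the chemokine receptor Ccr2 can enter and mature into macrophages that share the general markers Adgre1, Csf1r and Cd68 but gain Clec4f and Timd4 late or not at all.

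The stretches upstream of the annotated start of 4 members are shown because Clec4f and Timd4 had the largest falls, Fcna fell with no overlap between the groups, and Itgax had the largest rise among members with an entry in the sequence table. RefSeq (GRCm38.p6) gave an entry for 27 of the 37 members. Each run is the 250 bases before the start, written 5′ to 3′ on the strand of the gene, with capitals for the letters GAGGAA (a core bound by PU.1, the myeloid factor encoded by Spi1) or TGANTCA (an AP-1 site) on either strand. The stretches lie at chr6:83656117-83656366 on the minus strand for Clec4f, chr11:46810549-46810798 on the plus strand for Timd4, chr2:25627975-25628224 on the minus strand for Fcna and chr7:128129300-128129549 on the plus strand for Itgax.
Clec4f: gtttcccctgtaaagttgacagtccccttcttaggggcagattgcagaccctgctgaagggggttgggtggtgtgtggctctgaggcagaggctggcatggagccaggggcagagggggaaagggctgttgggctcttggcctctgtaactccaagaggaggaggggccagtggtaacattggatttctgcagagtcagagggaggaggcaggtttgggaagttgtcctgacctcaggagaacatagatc
Timd4: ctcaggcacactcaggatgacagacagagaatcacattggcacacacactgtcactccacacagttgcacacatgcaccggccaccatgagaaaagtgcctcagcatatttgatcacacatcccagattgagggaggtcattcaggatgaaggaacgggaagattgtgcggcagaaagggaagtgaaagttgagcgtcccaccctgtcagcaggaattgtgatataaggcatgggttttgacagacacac
Fcna: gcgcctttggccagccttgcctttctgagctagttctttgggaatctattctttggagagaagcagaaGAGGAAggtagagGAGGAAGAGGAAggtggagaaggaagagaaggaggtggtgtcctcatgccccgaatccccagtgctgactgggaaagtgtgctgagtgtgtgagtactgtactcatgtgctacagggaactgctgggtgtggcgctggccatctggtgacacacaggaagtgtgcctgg
Itgax: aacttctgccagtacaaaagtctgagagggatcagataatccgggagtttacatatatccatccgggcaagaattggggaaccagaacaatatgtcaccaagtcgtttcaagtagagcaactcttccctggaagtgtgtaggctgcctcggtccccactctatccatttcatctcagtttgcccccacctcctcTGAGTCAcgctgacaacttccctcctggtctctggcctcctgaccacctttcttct
The stretch of Fcna held GAGGAA 3 times, the last 2 matches side by side, and that of Itgax held 1 AP-1 match. Clec4f and Timd4 held neither. Over the 27 members with an entry, 14 (51.9%) had GAGGAA in this window, against 25.9% of all 27025 genes in the table. They included the C1q genes C1qb and C1qc, the lectin Fcna and the complement receptor Vsig4, and 4 of the 8 resident markers with an entry had a match. Of members with an entry that passed the test, 1 of the 6 that fell and 0 of the 3 that rose had GAGGAA. Of the other letters searched on both strands, TTGCNNAA, a C/EBP-type site, was in 3 of 27 members (10.8% of all genes) and TGANTCA in 4 of 27 (7.82% of all genes); none of these matches shows that a factor binds.

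The checks by hepatocyte markers matched liver as the tissue of both groups and did not test the HCC label. Albumin (Alb) lay between 15.29 and 15.60 on all 12 arrays, and of 7 measured hepatocyte markers 1 (tyrosine aminotransferase, Tat, at -1.14, adjusted p = 0.0369) passed the test, and did so with 1 array left out only for HCC 3 and HCC 5 (adjusted p up to 0.0719). The arrays had been scaled alike, and between 14.2% and 18.1% of the probe sets on an array had an intensity below 16. The mean of 3 genes of the Y chromosome was 4.17 to 4.85 in normal 1, normal 3, HCC 1 and HCC 4 and 8.96 to 9.77 in the other 8 arrays. Of all genes, 6.48% passed the test as higher in HCC and 7.24% as lower (limma, Benjamini-Hochberg adjusted p under 0.05), with a median difference of -0.04 on the log2 scale.

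Resident Kupffer markers fell in the tumours. Of the 9 genes 5 passed the test as lower and none as higher, against 7.24% and 6.48% of all genes, and all 9 had a difference below 0, with a median of -1.16 on the log2 scale. The genes that fell were the lectin Clec4f at -2.36, the phosphatidylserine receptor Timd4 at -2.11, the plasma and macrophage lectin ficolin A (Fcna) at -1.41, the haemoglobin-haptoglobin receptor Cd163 at -1.16 and the folate receptor Folr2 at -1.06. Vsig4, the complement receptor of Kupffer cells, was at -1.49 ± 0.51 (SE, limma adjusted p = 0.0729), and the secreted scavenger protein Cd5l, the sialic acid-binding lectin Siglec1 and the scavenger receptor Marco were at -0.84, -0.81 and -0.52 (adjusted p from 0.191 to 0.377). At an unadjusted p under 0.05 in limma the count was 6 lower and 0 higher, against 15.7% and 12.9% of all genes. The number of arrays limits the precision.

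Clec4f, which in mouse liver is made by Kupffer cells, ran from 9.91 through a median of 10.73 to 11.15 in normal liver. In HCC 1 to HCC 6 in that order it was 7.20, 8.36, 9.50, 6.23, 10.22 and 7.92. HCC 5 lay within the normal range, and the other 5 tumours lay below the lowest normal liver. The group means were 10.59 ± 0.50 and 8.24 ± 1.47 (SD, n = 6 each), a difference of -2.36 ± 0.57 (SE, limma adjusted p = 0.0167), or 5.13-fold on the scale with the pseudocount. Timd4, which marks long-lived resident macrophages and binds dying cells, ran from 6.81 through 7.29 to 7.84 in normal liver. In the tumours it was 4.99, 4.49, 6.11, 4.22, 6.86 and 4.44, with HCC 5 again inside the normal range at its lower edge. Its difference was -2.11 ± 0.42 (SE, limma adjusted p = 0.00609), and since HCC 1, 2, 4 and 6 sat close to the floor of 4, the size of this fall is limited by the scale.

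Fcna separated the groups in full. It ran from 10.0 to 10.67 in normal liver (median 10.43) and was 8.78, 8.50, 9.55, 8.45, 9.87 and 8.50 in HCC 1 to HCC 6, a difference of -1.41 ± 0.26 (SE, limma adjusted p = 0.00466). It was the only one of the 9 resident markers with no overlap between the groups, which 4.5% of all genes showed in that direction. Folr2 ran from 7.38 to 8.78 in normal liver (median 8.45) and from 6.44 to 8.10 in HCC (median 7.29), and 3 tumours lay below all normal livers. Its difference of -1.06 ± 0.30 (SE, limma adjusted p = 0.0316) did not pass with the deposited scaling (adjusted p = 0.0691) or median centring (0.0517). With 1 array left out it passed for normal 4, HCC 3, HCC 5 and HCC 6 and missed for the other 8 (adjusted p up to 0.0671). Cd163, which clears haemoglobin bound to haptoglobin, ran from 6.82 to 8.61 (median 7.64) and from 5.61 to 7.30 (median 6.49), with HCC 1 lowest and 4 tumours below all normal livers. Its difference of -1.16 ± 0.33 (SE, limma adjusted p = 0.0338) passed with normal 1, normal 2, normal 3, HCC 3 or HCC 5 left out and missed for the other 7 (adjusted p up to 0.075).

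The 4 resident markers that did not pass had overlapping groups. Vsig4 ran from 10.07 to 11.93 in normal liver and was 8.83, 9.75, 10.77, 8.10, 11.12 and 8.93 in the tumours, with 4 of 6 below the normal range; it passed without HCC 3 or HCC 5, with the filter on dim genes and with the replicate block (adjusted p from 0.0284 to 0.048). Cd5l, a protein that Kupffer cells secrete into plasma, ran from 10.36 to 11.78 in normal liver and was 9.77, 10.04, 11.63, 9.01, 11.95 and 9.91 in HCC, so HCC 5 was above every normal liver and 4 tumours below every one. Siglec1 ran from 6.73 to 7.69 and from 5.08 to 7.56, with HCC 1, the highest tumour, inside the normal range. Marco was dim in both groups, from 5.18 to 6.72 in normal liver and from 4.76 to 6.32 in HCC, and its other probe set had a difference of the opposite sign, 0.35.

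**Figure D1:**
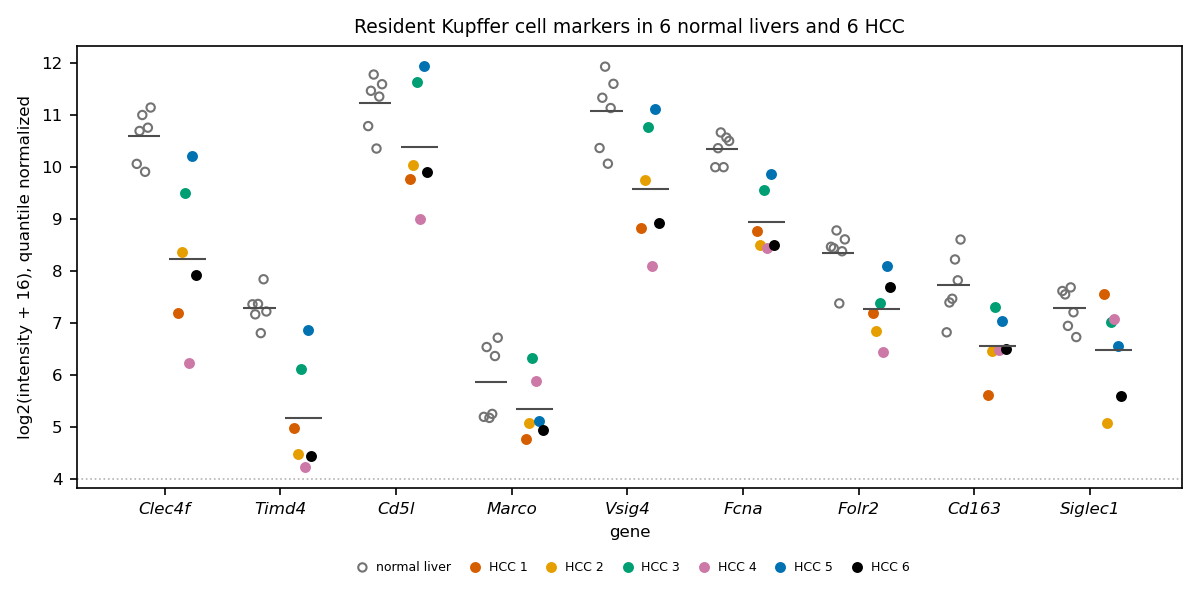
The 9 resident Kupffer markers on each array, as quantile-normalized log2(intensity + 16) on the vertical axis; open circles are the 6 normal livers, coloured points the 6 HCC, horizontal bars the group means, and the dotted line the floor of 4. HCC 5 and HCC 3 sit highest among the tumours for Clec4f, Timd4, Cd5l, Vsig4 and Fcna, and HCC 4 lowest.

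General macrophage markers as a group did not fall with the resident ones. Of the 19 pan-myeloid genes 3 passed the test as higher and none as lower, against 6.48% and 7.24% of all genes; 16 had a difference above 0, and the median was 0.78, or 0.34 without HCC 6. Adgre1, the standard surface marker of mouse macrophages, was 9.39 ± 0.48 in normal liver and 9.42 ± 0.51 in HCC (SD, n = 6 each), a difference of 0.03 with a 95% interval from -0.55 to 0.62 (limma adjusted p = 0.959) whose sign turned with array weights (-0.049) and with normal 1, normal 4, HCC 3, HCC 5 or HCC 6 left out (down to -0.12). Csf1r, the receptor that macrophages need for survival, was at -0.30 (interval from -1.07 to 0.46, adjusted p = 0.632). For Csf1r 3 tumours, HCC 1, HCC 2 and HCC 4, lay below all normal livers. Spi1, which encodes the myeloid factor PU.1, was at 0.08 (interval from -0.43 to 0.59, adjusted p = 0.869), and its sign turned without normal 1 (-0.074), HCC 5 (-0.014) or HCC 6 (-0.023).

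The pan-myeloid genes that rose were Cd14, Mpeg1 and Tlr2. Cd14, the coreceptor for bacterial lipopolysaccharide, which hepatocytes can also make, ran from 7.28 through 8.10 to 8.35 in normal liver and was 10.06, 10.77, 11.99, 10.50, 11.48 and 12.46 in HCC 1 to HCC 6. The groups did not overlap, as in 4.25% of all genes in that direction, and Cd14 was the only one of the 27 pan-myeloid and recruited markers with this pattern. Its difference was 3.21 ± 0.37 (SE, limma adjusted p = 0.000227). Mpeg1, the pore-forming protein of phagocytes, ran from 11.13 to 12.02 in normal liver (median 11.52) and was 11.89, 12.98, 13.10, 12.05, 14.24 and 13.84 in HCC, a difference of 1.50 ± 0.37 (SE, limma adjusted p = 0.0191), with HCC 1 inside the normal range. Tlr2, the Toll-like receptor for bacterial lipoproteins, ran from 6.66 to 7.47 (median 7.23) and was 7.0, 8.34, 8.69, 7.76, 8.63 and 9.02 in HCC, again with HCC 1 inside the normal range. Its difference of 1.12 ± 0.31 (SE, limma adjusted p = 0.0333) passed with normal 5, normal 6, HCC 1 or HCC 4 left out and missed for the other 8 (adjusted p up to 0.0705).

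At an unadjusted p under 0.05 in limma 8 of the 27 pan-myeloid and recruited markers were higher and 0 lower (12.9% and 15.7% of all genes). The complement, Fc receptor and lysosomal genes of macrophages had positive differences that did not pass and that were smaller without HCC 6. The subunits of C1q, the complement starter that macrophages produce, were at 0.83 for C1qa, 0.81 for C1qb and 0.51 for C1qc (adjusted p from 0.182 to 0.441). The high-affinity immunoglobulin receptor Fcgr1 was at 0.90 and the low-affinity receptor Fcgr3 at 0.82. The signalling adaptor Tyrobp was at 0.66 and the integrin chain Itgb2 at 0.67. The lysosomal protein Cd68 was at 1.34 (95% interval from 0.22 to 2.46, adjusted p = 0.107), the protease cathepsin S (Ctss) at 0.84 and lysozyme (Lyz2) at 0.78. The calcium-binding protein Aif1 was at 0.15, the scavenger receptor Msr1 at -0.52, and the lipopolysaccharide receptor Tlr4 at -0.04, a sign that turned with each scaling tried (0.081 as deposited, 0.013 with median centring) and with several single arrays left out. Without HCC 6, 11 of the 16 positive pan-myeloid differences were smaller by over 1.5 times, with C1qa at 0.47, C1qc at 0.23, Itgb2 at 0.34, Fcgr3 at 0.44, Tyrobp at 0.32, Cd68 at 0.88, Ctss at 0.45 and Lyz2 at 0.29, and Adgre1, Spi1 and Aif1 below 0. Lyz2 and Fcgr3 have close relatives, and a probe set could read both. Some probe sets that were not the brightest had the opposite sign. The other probe set of Fcgr1 was at -0.08. Those of Msr1 were at 0.01, 0.38 and -0.28, and those of Tlr4 at 0.59, 0.12 and -0.03.

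Recruited or lesion-associated markers all had differences above 0, with a median of 1.15 (0.87 without HCC 6), but 1 of the 8 passed as higher and none as lower (6.48% and 7.24% of all genes). Itgax, the CD11c chain of dendritic cells and of some lipid-laden macrophages, ran from 4.84 through 6.65 to 7.05 in normal liver and was 7.78, 6.50, 8.75, 8.34, 8.70 and 10.00 in HCC. HCC 2 lay in the normal range and the other 5 tumours above it. Its difference was 2.01 ± 0.53 (SE, limma adjusted p = 0.0241), and it was not called without normal 4, the lowest array but 1 among the normal livers (adjusted p = 0.0528), or with the replicate block (0.0515). The fractalkine receptor Cx3cr1 was at 1.21 (adjusted p = 0.0837; 0.0144 without HCC 1) and the monocyte receptor Ccr2 at 1.10 (adjusted p = 0.112). The integrin chain Itgam (CD11b) was at 0.48 and the lipid receptor Trem2 at 0.17, both dim, with normal medians of 6.02 and 6.09 (adjusted p of 0.504 and 0.842).

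Gpnmb, a lysosomal glycoprotein of macrophages that have taken up lipid or debris, varied most among the tumours. It ran from 5.67 to 7.16 in normal liver and was 8.48, 5.34, 8.45, 7.52, 7.93 and 13.39 in HCC 1 to HCC 6. HCC 6 lay far above every other array, and HCC 2 below all normal livers. The difference was 1.95 ± 0.99 (SE, limma adjusted p = 0.223), 0.97 without HCC 6. The calprotectin subunits S100a8 and S100a9, abundant in neutrophils and monocytes, were also highest in HCC 6. S100a8 was 6.69, 8.15, 9.09, 9.55, 8.64 and 11.41 in the tumours against 6.99 to 8.50 in normal liver, and S100a9 was 7.0, 8.40, 8.07, 8.90, 7.87 and 10.13 against 6.51 to 8.06. Their differences were 1.29 and 0.97 (adjusted p of 0.195 and 0.169). Lyz2 was 9.28, 10.02, 11.08, 10.67, 11.98 and 13.55 in the tumours, so that HCC 1 fell just below the normal range of 9.31 to 10.86 and HCC 3, HCC 5 and HCC 6 lay above it.

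**Figure D2:**
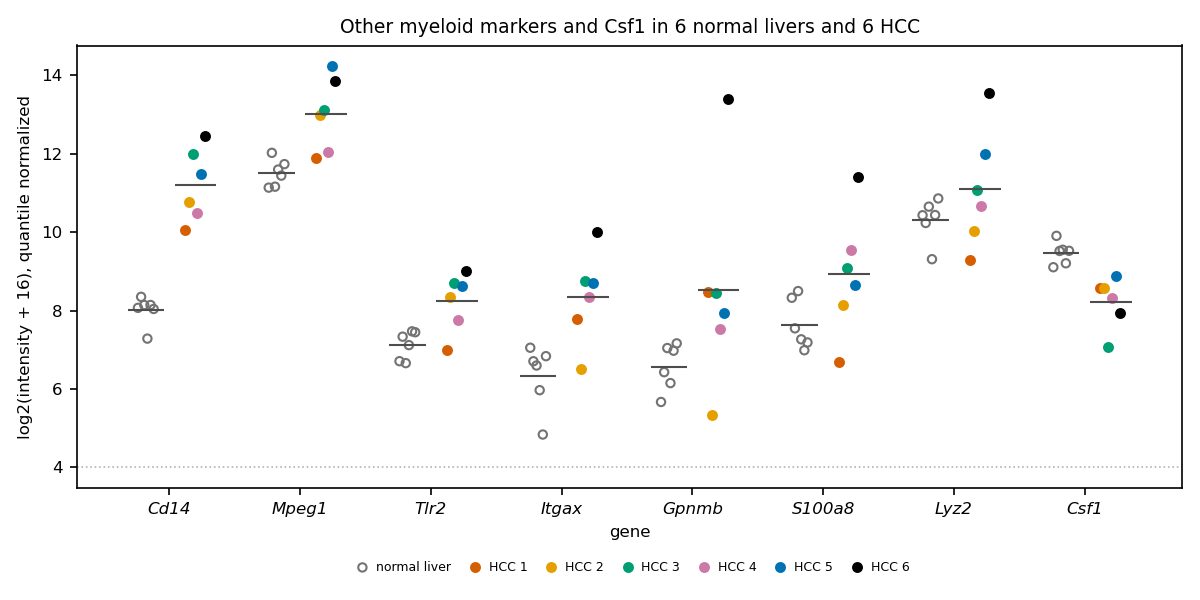
The 3 pan-myeloid markers and the recruited marker that rose (Cd14, Mpeg1, Tlr2, Itgax), those that varied most among tumours (Gpnmb, S100a8, Lyz2) and Csf1, drawn as in the plot of resident markers on a log2 axis. All 6 HCC lie above all normal livers for Cd14, and HCC 6 stands alone for Gpnmb at 13.39.

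Csf1, the growth factor of the lineage, was lower by its brightest probe set and not by its others. That probe set ran from 9.10 to 9.90 in normal liver (median 9.52) and was 8.58, 8.59, 7.07, 8.33, 8.88 and 7.93 in HCC, without overlap, a difference of -1.24 ± 0.27 (SE, limma adjusted p = 0.0112). The other 3 probe sets were at -0.03, 0.27 and 0.20 (limma over all probe sets, adjusted p from 0.558 to 0.971), and the mean of all 4 gave no call (adjusted p = 0.522). The direction of Csf1 is therefore not settled by these arrays. The other 9 members that passed the test had 1 probe set each.

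**Figure D3:**
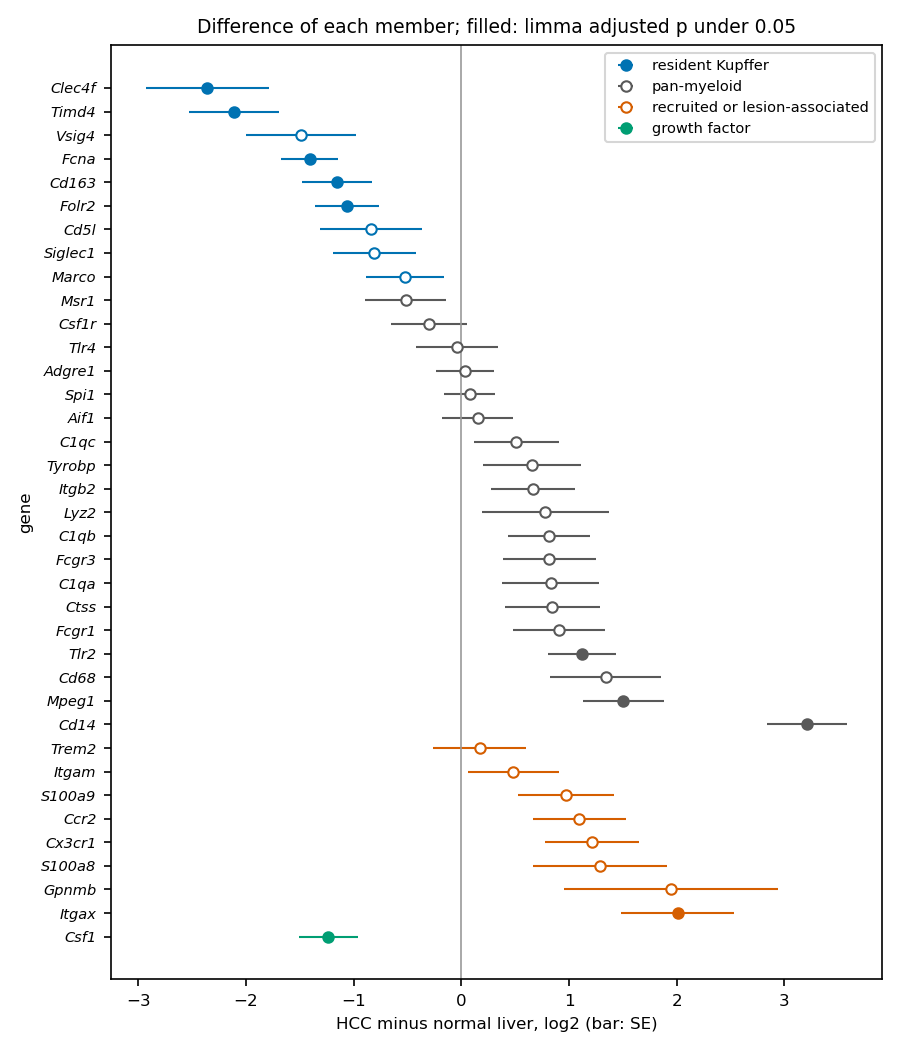
Difference between 6 HCC and 6 normal livers for each of the 37 members on the log2 scale, with its SE from limma as a bar; filled points have an adjusted p under 0.05. All 9 resident markers lie left of 0, with medians of -1.16 for them, 0.78 for the pan-myeloid and 1.15 for the recruited markers.

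The next comparison asked whether a marker differed between the groups by another amount than Adgre1, the general macrophage marker. Each gene's log2 level minus that of Adgre1 on the same array was fitted over all genes, of which 2.15% passed as higher in HCC and 1.73% as lower. Of the 9 resident markers 4 passed as lower relative to Adgre1: Clec4f at -2.39 ± 0.44 (SE, limma adjusted p = 0.000864), Timd4 at -2.14 ± 0.41 (adjusted p = 0.00131), Vsig4 at -1.52 ± 0.43 (adjusted p = 0.0361) and Fcna at -1.44 ± 0.37 (adjusted p = 0.0183). Of the other 26 pan-myeloid and recruited markers 3 passed as higher, Cd14 at 3.18, Itgax at 1.98 and Mpeg1 at 1.47, and none as lower. The count of resident markers was 2 of 9 relative to Csf1r (0.803% of all genes lower), Clec4f at -2.06 and Timd4 at -1.81 (adjusted p of 0.00443 and 0.0148), and 6 of the other 26 were higher (2.99% of all genes). Relative to Cd68 it was 9 of 9, where 34.3% of all genes passed as lower and 0.357% as higher, with Cd68 itself at 1.34. Without normal 3 the count relative to Adgre1 was 2.

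**Figure D4:**
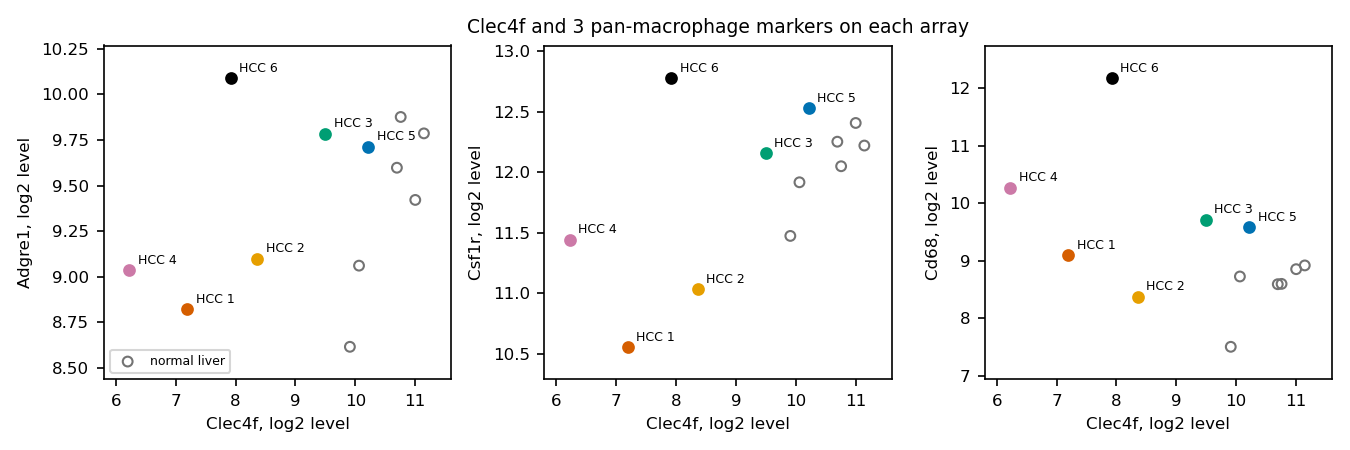
Log2 level of Clec4f on the horizontal axis against Adgre1, Csf1r and Cd68 on each array; open circles are normal livers and labelled points are HCC. HCC 6 has the highest value of Adgre1, Csf1r and Cd68 of all 12 arrays, with Clec4f at 7.92, below the normal range of 9.91 to 11.15.

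HCC 6 was low in resident markers and high in the others. In that tumour all 19 pan-myeloid markers lay above the highest normal liver, as did 7 of the 8 recruited ones and 24.8% of all genes in that tumour, and 8 of the 9 resident markers lay below the lowest normal liver (30.0% of all genes). HCC 6 was the highest tumour for 23 of the 27 pan-myeloid and recruited markers, against 18.5% of all genes. Its mean relative to normal liver was 2.07 over the pan-myeloid, 2.85 over the recruited and -1.70 over the resident markers. HCC 5 was high in the general markers and the least reduced in resident ones. There 22 of the 27 pan-myeloid and recruited markers lay above all normal livers (20.8% of all genes). It was the highest tumour for 6 of the 9 resident markers (15.4% of all genes). HCC 5 still had 3 of the 9 below all normal livers (24.3% of all genes) and 1, Cd5l, above them. Its means were 1.20, 1.41 and -0.33. HCC 3 was alike, with 19 of 27 above all normal livers (22.9% of all genes), 3 of 9 resident markers below them (25.6%), and means of 0.92, 1.23 and -0.47.

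HCC 1, HCC 2 and HCC 4 were low in resident markers and had pan-myeloid means within the normal range, though HCC 4 had 10 of the 27 pan-myeloid and recruited markers above all normal livers (21.7% of all genes), 5 of them recruited. HCC 1 and HCC 2 had 4 of 27 each above them (22.2% and 20.1% of all genes). HCC 4 was the lowest tumour for 6 of the 9 resident markers (15.7% of all genes), with a resident mean of -1.99, a pan-myeloid mean of 0.29 and a recruited mean of 0.96. In HCC 2 all 9 resident markers lay below the normal range (21.8% of all genes), with a resident mean of -1.68, a pan-myeloid mean of 0.04 and a recruited mean of 0.17. HCC 1 had 8 of 9 below it (24.1% of all genes), a resident mean of -1.67, the lowest pan-myeloid mean of the tumours at -0.30 and a recruited mean of 0.26, and was the lowest tumour for 12 of the 19 pan-myeloid markers (15.9% of all genes). Among normal livers these means ran from -0.45 to 0.33 for resident, -0.62 to 0.36 for pan-myeloid and -0.37 to 0.34 for recruited markers. Csf1r was 10.56, 11.04, 12.16, 11.44, 12.53 and 12.78 in HCC 1 to HCC 6 against 11.47 to 12.41 in normal liver. HCC 1, HCC 2 and HCC 4 were thus also the lowest in Csf1r, below all normal livers.

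**Figure D5:**
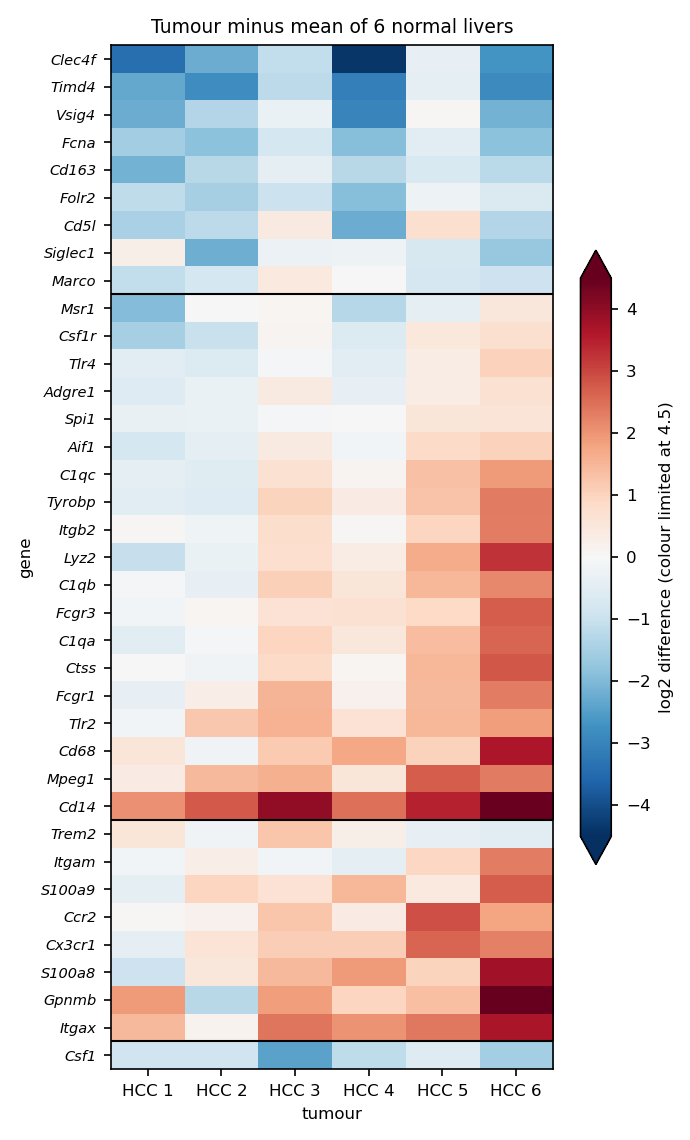
Each tumour's log2 level minus the mean of the 6 normal livers for all 37 members, with lines between the resident, pan-myeloid and recruited markers and Csf1; red is higher and blue lower than normal liver, and colours stop at 4.5. HCC 6 is red in all 19 pan-myeloid rows and blue in the resident rows, while HCC 5 and HCC 3 are pale in most resident rows.

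The spread between tumours was larger than between normal livers for most members. The SD was larger in HCC for 32 of the 37 genes (64.7% of all genes), with a median SD of 0.98 in HCC and 0.48 in normal liver, against 0.45 and 0.34 over all genes. After Gpnmb (2.65), the largest SDs in HCC were those of S100a8 (1.57), Lyz2 (1.51) and Clec4f (1.47). Normal 4 was the lowest normal liver for 22 of the 37 members (16.6% of all genes). Without it the count of pan-myeloid and recruited markers called higher was 2 in place of 4, and that of resident markers called lower 4 in place of 5.

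The split by Y-linked signal lay across these patterns, since HCC 1 and HCC 4 were the tumours without it. Clec4f differed by -1.63 between the 4 HCC and 4 normal livers with the signal and by -3.82 between the 2 and 2 without it, and Timd4 by -1.79 and -2.76. None of the 37 members passed a test of this difference (limma interaction, Clec4f adjusted p = 0.501), which 28 of all genes passed. At an unadjusted p under 0.05 in this test there were 4 members. The share of all genes at that threshold is not given here, so the 4 cannot be set against a background. Among the arrays with the signal none of the 9 resident markers passed as lower in limma (adjusted p from 0.0582, 5 at an unadjusted p under 0.05), against 3.09% and 13.1% of all genes, though all 9 differences were below 0. Of the 27 pan-myeloid and recruited markers 3 passed as higher there and 10 at an unadjusted p under 0.05 (3.16% and 10.9% of all genes). Their median difference was 1.25 among the arrays with the signal and 0.031 among those without it, where 7 of the 9 resident markers were below 0. With the Y-linked level as a covariate on all 12 arrays the counts were 5 and 4, as without it.

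Other genes of the macrophage programme came from lists of related genes. Of 13 measured transcription factors and further genes of Kupffer cells 2 passed as lower and none as higher (7.24% and 6.48% of all genes), with a median of -0.49. Id3, a regulator that Kupffer cells need, which other liver cells also make, fell by 1.83 ± 0.31 (SE, limma adjusted p = 0.00275), from 10.31 to 11.56 in normal liver to 8.62 to 10.03 in HCC, and the prostaglandin-degrading enzyme Hpgd fell by 1.21 (adjusted p = 0.0235), a call missed without normal 5 or HCC 6 (adjusted p up to 0.0516). The others of this Kupffer cell list did not pass and are named after their values were seen. Cdh5 was above all normal livers in 5 of 6 HCC (limma adjusted p = 0.0925). Spic at 0.51 and Id1 at 0.09 also had differences above 0. Below 0 were C6 at -0.80, Maf at -0.74, Slc40a1 at -0.53 and Clec1b at -0.51. So were Zeb2 at -0.49, Kcna2 at -0.47, Nr1h3 at -0.35 and Il18bp at -0.08. In the 8 genes of the CSF1 receptor axis none but Csf1 passed.

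Of 12 measured genes of lipopolysaccharide recognition and Toll-like receptor signalling 4 passed as higher and none as lower (6.48% and 7.24% of all genes), with a median of 0.25. Tlr1 rose by 4.42 ± 0.37 (SE, limma adjusted p = 2.51e-05), from at most 6.89 in normal liver to at least 9.68 in HCC, and Tlr6 by 1.56 (adjusted p = 0.00607). Both pair with Tlr2 as receptors for bacterial lipoproteins. Tlr1 was 11.02, 9.68, 9.85, 10.98, 10.01 and 10.01 in HCC 1 to HCC 6. It was highest in HCC 1, the tumour with the lowest pan-myeloid mean (-0.30). Which cells made Tlr1 was not tested. Tlr7, at 1.25 (adjusted p = 0.0365), passed with normal 2, normal 3, HCC 1 or HCC 3 left out and missed for the other 8 (adjusted p up to 0.0783). The other gene that rose, Ly96, the partner of Tlr4, is named after its value was seen, at 0.95. Among 9 Fc receptor and signalling genes the beta-glucan receptor Clec7a passed at 1.23 (adjusted p = 0.045), and with 1 array left out only for normal 3, HCC 1 and HCC 2 (adjusted p up to 0.0951).

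Of 10 measured lysosomal and lipid-associated macrophage genes 3 rose and none fell, against 6.48% and 7.24% of all genes. The median of the list was 0.08. The fatty acid carrier Fabp5 rose by 3.10, galectin 3 (Lgals3) by 2.59 and the tetraspanin Cd9 by 2.37. For each, all 6 HCC lay above all normal livers, as in 4.25% of all genes. Many other cell types make Fabp5, Lgals3 and Cd9. The others of this list did not pass and are named after their values were seen. Ctsd was at 0.49 and Plin2 at 0.17, while Ctsb was at -0.0009, Lamp1 at -0.01, Ctsk at -0.03, Ctsl at -0.07 and Lipa at -0.16. Of 11 chemokines for monocyte and neutrophil receptors 2 rose, Cxcl1 by 2.52 and Ccl5 by 1.38 (adjusted p of 0.00114 and 0.0283), and Ccl5 lost its call without normal 4, normal 5 or HCC 3 (adjusted p up to 0.0635).

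Markers of other cell types moved with some of these results, and their part in them was not tested. The counts below stand against 6.48% of all genes higher and 7.24% lower. At an unadjusted p under 0.05 in limma these shares were 12.9% and 15.7%. Of 6 measured monocyte markers 2 rose, Plac8 by 0.98, a call missed without normal 2, 3, 4 or 5 (adjusted p up to 0.0573), and Fn1, which hepatocytes also make, by 0.46. Over this list the summed intensity was 20397 to 25038 in normal liver and 29612 to 40928 in HCC, of which Fn1 made up 84.1% to 96.3%. The other 5 markers summed to 879 to 1118 in normal liver and 1094 to 6493 in HCC, highest in HCC 6. Of 9 neutrophil markers 1 rose, Lcn2 by 4.73, which hepatocytes also make; the others, with the granule genes Mpo, Elane and Camp among them, did not pass, and the sum was 952 to 3521 in normal liver and 22753 to 43319 in HCC. Lcn2 made up 97.2% to 98.6% of this sum in HCC, and the other 8 markers summed to 470 to 752 in normal liver and 355 to 1107 in HCC, highest in HCC 6. Of 9 sinusoidal endothelial markers, cells that share the sinusoid with Kupffer cells, 3 fell, Clec4g at -2.13, Dnase1l3 at -1.36 and Stab2 at -1.11, and Dnase1l3 missed without normal 2, normal 5 or HCC 4 (adjusted p up to 0.0524). The others of this list are named after their values were seen. Pecam1 was at 1.38 (limma adjusted p = 0.0783, 5 of 6 HCC above all normal livers), Lyve1 at 0.22 and Stab1 at 0.02. In the other direction, Oit3 was at -1.17 (limma adjusted p = 0.119, 4 of 6 HCC below all normal livers), Kdr at -0.38 and Fcgr2b at -0.21. The list had sums of 5996 to 11523 and 2980 to 8719. Of 8 stellate cell markers Col1a1 rose by 3.27, and Lrat and Dcn were lower at -2.52 and -2.07. Col1a1 passed with 1 array left out for normal 6, HCC 1, HCC 2 and HCC 6 (adjusted p up to 0.0832), and Dcn for HCC 5 and HCC 6 (up to 0.0926). The sum reached 67707 in HCC 6, against 9279 to 13778 in normal liver. Of 10 T, NK and B cell markers none passed in limma (2 at an unadjusted p under 0.05), with sums of 924 to 1725 in normal liver and 1260 to 3792 in HCC, again highest in HCC 6. In none of these lists was a marker under an intensity of 16 on every array.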

How the data were processed

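The authors deposited linear intensity values for 45101 Affymetrix probe sets on 12 arrays, with an equal 2% trimmed mean on every array. How probes were summarised: not given in the sources used here. Per the labels' protocols, 1 microgram of total RNA was labelled by one-cycle cDNA synthesis.

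log2(intensity + 16) was quantile normalized, 64 control probe sets were left out, and 34945 probe sets that name 1 gene gave 18193 genes. The 6 HCC were set against the 6 normal livers in limma 3.58.1 under R 4.3.3 (lmFit, eBayes). P-values are two-sided and adjusted by Benjamini-Hochberg over all genes, with a threshold of 0.05. The members and lists were chosen with earlier results of these data known. Every member is accounted for. Values by array are given for resident markers, the largest differences past the test and the largest SDs in HCC. Other lists are given by counts with up to 3 members of largest difference, or the member of smallest p where none passed. Data for this comparison (18193 genes) were simulated with the normal-liver mean and SD of each gene in both groups and with independent genes. There the test recovered 18%, 72%, 88% and 100% of 50 genes shifted by 0.5, 1, 2 and 4 and called 4 of 17993 unchanged ones. Relative to Adgre1 these shares were 0%, 2%, 90% and 100%. The members had a median SD of 0.98 in HCC and 0.48 in normal liver, and macrophage genes can vary together. These shares therefore do not give the power of either test for the members. Same-number arrays did not deviate together (correlations from -0.01 to 0.08), so numbers were not taken as pairs. Motifs and figures used Python 3.11.15 and matplotlib 3.10.9.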

Additional observations from a re-analysis of the deposited data

Results flagged for a closer look

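Among 124 groups of 6 values (62 genes in 2 groups) 8 had 1 array far from the others, by the gap to its nearest neighbour as a share of the range; chance gives about 1 in 20. Of the members, normal 4 stood low among normal livers for Folr2 at 7.38, Cd68 at 7.50, Cd14 at 7.28 and Tlr4 at 5.90, where the next normal livers were at 8.38, 8.59, 8.04 and 7.49. HCC 6 stood high among tumours for Fcgr3 at 11.09, with the next tumour at 9.26. Of other genes named, Cxcl1 was high in normal 2 at 11.27, Fn1 high in HCC 6 at 15.07 and Dnase1l3 low in normal 1 at 8.64.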

How the results depend on the processing

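The arrays' number limits every count, and dim genes such as Timd4, Marco, Itgam and Trem2 are limited by signal over background. Of the 10 members called, all 10 kept their direction under every alternative run, and 6 (Clec4f, Timd4, Fcna, Cd14, Mpeg1, Csf1) kept their call with each array left out in turn. Resident markers called lower were 5, and 3 to 6 with single arrays left out (3 without normal 5, normal 6, HCC 1, HCC 2 or HCC 4); other markers called higher were 4, and 2 to 6 (2 without normal 4). Relative to Adgre1 these counts were 4 (2 to 4) and 3 (2 to 5; 5 without normal 4 or HCC 2). No resident marker was called higher and no other marker lower (0 to 0) in any of these, except 2 other markers lower relative to Cd68. At an adjusted p under 0.01 the counts were 2 and 1, where 461 of 18193 genes passed as lower and 515 as higher. Relative to Adgre1, 2 resident markers passed at that threshold. The count of other markers higher relative to Adgre1 was 6 with a pseudocount of 64, 7 with the filter on dim genes, 5 with the trended and robust model, 5 with array weights, 6 relative to Csf1r and 1 relative to Cd68; that of resident markers lower was 2 relative to Csf1r and 9 relative to Cd68. Beside the counts relative to Adgre1 under changed settings, the shares of all genes are not given here. These counts therefore cannot be set against a background. The filter left 33 of the 37 members, without Timd4, Marco, Itgam and Trem2. With the replicate block, for numbers that do not pair the samples, the counts were 6 and 3, and relative to Adgre1 5 and 4. Of 18193 genes, 839 passed as lower and 862 as higher with this block.

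Among the 4 and 4 arrays with Y-linked signal, chosen after seeing the data, 0 resident markers were lower (5 at an unadjusted p under 0.05), and 2 relative to Adgre1. Among the 2 and 2 without it the counts were 0 and 0 (at an unadjusted p under 0.05, 6 resident markers lower, and of the others 3 higher and 4 lower, against 7.92% of all genes higher and 9.59% lower), and relative to Adgre1 1 and 1. Both use fewer samples. Uncalled members changed sign: with the signal Csf1r was 0.13 and Tlr4 0.27; without it Marco was 0.14, Siglec1 0.035, Adgre1 -0.31, Lyz2 -0.57, C1qa -0.047, C1qc -0.23, Itgb2 -0.068, Tyrobp -0.041, Aif1 -0.95, Itgam -0.56 and S100a8 -0.29. Tlr4 was 0.081 with the deposited scaling, 0.013 with median centring and 0.16 with the mean of probe sets, and Adgre1 -0.049 with array weights. With single arrays left out Tlr4 ran from -0.36 to 0.068, Adgre1 from -0.12 to 0.15, Spi1 from -0.074 to 0.16, Trem2 from -0.10 to 0.37 and Aif1 from -0.021 to 0.34; the cause was not tested.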

Other observations

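Of 8 measured dendritic cell markers none rose and 1 fell, against 6.48% and 7.24% of all genes. The integrin chain Itgae fell, with a log2 difference of -0.63 ± 0.15 (SE, adjusted p = 0.0146 in limma). Of 3 measured red cell markers 1 rose and none fell, against 6.48% and 7.24% of all genes. The anion exchanger Slc4a1 rose by 1.31 ± 0.25 (SE, limma adjusted p = 0.00552). For it all 6 HCC lay above all normal livers, as in 4.25% of all genes. Over the red cell list the summed intensity was 402 to 4451 in normal liver and 768 to 3019 in HCC, within the normal range. Of 4 measured cholangiocyte markers none passed in limma (0 at an unadjusted p under 0.05). The marker of smallest p among them was the keratin Krt7, at 0.62.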
